A study of Mus musculus with 96 samples.

Results

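The 8 genes described here, Zic1, Zic2, Zic4, En1, En2, Pax6, Lhx1 and Lhx5, encode transcription factors that pattern the cerebellum, and they were chosen by name from the 35486 gene symbols of a table of read counts. All 8 were present as rows of that table and were followed through every brain region, age and treatment of the series. All animals were male C57BL/6J mice. The first experiment sequenced mRNA from the cerebellum, cortex and hippocampus of each of 29 mice, and the second from the hippocampus alone of 9 mice, which makes 96 libraries. The comparisons address what aging, and injection of aged mice with plasma from young mice, do to gene expression in each region. Naive mice, which were not injected, were 2 months old (4 mice) or 18 months old (3 mice). The series description gives the young mice as 3 months old, while their labels say 2 months. Mice given 1 injection a day for 7 days received PBS, the saline vehicle, at 18 months (4 mice) or 22 months (3 mice), or young plasma, labelled OPL, at 18 months (5 mice) or 22 months (3 mice). Mice of 19 months were injected for 24 days with PBS (OPLTPBS, 4 mice, called long PBS here) or young plasma (OPLTOPL, 3 mice, called long plasma). The second experiment held mice of 18 months after 7 injections of PBS (4 mice) or plasma (5 mice). Replicate numbers below are the animal numbers of the labels. All injected mice were aged, so no young injected group stands beside them, and the number of donors behind the plasma is not given in the sources used here.

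The members act at successive steps in the making of the cerebellum. En1 and En2 are homeodomain repressors of the midbrain-hindbrain border, where the isthmic organiser sets out the cerebellar field, and both stay on in subsets of adult cerebellar neurons. Zic1, Zic2 and Zic4 are zinc finger factors and Pax6 is a paired and homeodomain factor of the rhombic lip lineage, which gives rise to cerebellar granule cells, the most numerous neurons of the brain. Lhx1 and Lhx5 are LIM homeodomain factors of the Purkinje cell lineage, the inhibitory output neurons of the cerebellar cortex.

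The genes lie on 6 chromosomes of the mouse genome build GRCm38, as annotated by GENCODE M21. Zic1 (ENSMUSG00000032368.14, chr9:91358058-91365810, minus strand) and Zic4 (ENSMUSG00000036972.14, chr9:91362413-91389348, plus strand) point in opposite directions and share 3398 bases of their gene spans. The libraries do not mark strand, so reads from the shared part of Zic1 and Zic4 cannot be assigned to a strand. Zic2 (ENSMUSG00000061524.8) lies at chr14:122475435-122479852 and En1 (ENSMUSG00000058665.8) at chr1:120602418-120607992, both on the plus strand. En2 (ENSMUSG00000039095.8) lies at chr5:28165694-28172166 and Lhx5 (ENSMUSG00000029595.9) at chr5:120431699-120441223, both on the plus strand. Pax6 (ENSMUSG00000027168.21) lies at chr2:105668900-105697364 on the plus strand and Lhx1 (ENSMUSG00000018698.15) at chr11:84518284-84525535 on the minus strand. Pax6 shares 1431 bases with the antisense gene Pax6os1, Lhx5 shares 69 with the antisense gene Gm27199, En2 shares 365 with Gm43610 and Zic4 shares 884 with Gm37477. Pax6os1 itself had a mean of 1.08 CPM in the cerebellum against 84.4 for Pax6.

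The stretches just before the annotated starts of Zic1, En1 and Lhx1 are shown because Zic1 had the highest level per length of the 8 members, and En1 and Lhx1 stood the farthest apart between regions in count ratio. They were taken from RefSeq promoters of build GRCm38.p6, without bases that GENCODE places within the span of the same gene. They are written 5′ to 3′ on the gene's strand with each CG dinucleotide in capitals. The Zic1 stretch is at chr9:91365811-91366018 (minus strand) and lies within the span of Zic4, whose exons were not removed from it. The En1 stretch is at chr1:120602237-120602417 (plus strand), and the Lhx1 stretch at chr11:84525536-84525784 (minus strand).
Zic1: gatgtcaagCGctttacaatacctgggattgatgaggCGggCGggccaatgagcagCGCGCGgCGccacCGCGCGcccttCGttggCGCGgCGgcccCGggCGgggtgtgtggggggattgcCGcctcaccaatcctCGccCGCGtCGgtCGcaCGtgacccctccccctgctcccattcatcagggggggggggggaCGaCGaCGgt
En1: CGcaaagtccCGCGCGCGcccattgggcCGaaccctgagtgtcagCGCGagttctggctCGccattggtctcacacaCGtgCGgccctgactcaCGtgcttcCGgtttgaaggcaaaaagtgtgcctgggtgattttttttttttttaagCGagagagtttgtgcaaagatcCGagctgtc
Lhx1: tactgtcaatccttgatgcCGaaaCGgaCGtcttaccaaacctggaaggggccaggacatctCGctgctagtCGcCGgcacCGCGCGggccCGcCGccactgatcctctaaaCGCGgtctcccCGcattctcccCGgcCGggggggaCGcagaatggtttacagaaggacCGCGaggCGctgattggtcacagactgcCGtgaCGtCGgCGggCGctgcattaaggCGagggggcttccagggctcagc

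All 3 stretches are dense in CG. In the full 250 bases before the RefSeq start, Zic1 held 27 CG, more than 91.4% of the 32536 promoters of the table. Lhx1 held 26 (more than 90.3%) and En1 held 19 (more than 80.1%), against a median of 6 over all promoters. Both Pax6 entries held 15 CG (more than 72.5%), while the Zic4 entry held 4 (more than 37.4%). On either strand, the letters TATAAA were in none of the 6 entries of these 5 members and in 12.3% of all promoters. The homeodomain core TAATTA was also in none, against 4.84% of all. CCAAT was in the entries of Zic1, En1 and Lhx1 and in the first of Pax6 (33.8% of all), and the E-box form CANNTG in those of Zic1, Zic4 and En1 and the second of Pax6 (66.2% of all). Zic2, En2 and Lhx5 had no entry.

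Depth was 851288 to 18786091 counts per library in the cerebellum, 1815609 to 23768385 in the cortex and 1659775 to 21440462 in the hippocampus, and 7 of the 96 libraries were under 2500000. Values are CPM, the count of a gene scaled to the total count of its library. The region labels were checked against markers of each region. The granule cell gene Gabra6 averaged 420 CPM in cerebellar libraries against 0.0414 in cortical and 0.0488 in hippocampal ones, and the Purkinje cell gene Pcp2 had 316, 3.64 and 4.43. A marker score was taken as the mean log2 CPM of the marker genes of the labelled region. For 7 libraries, 3 of cortex and 4 of hippocampus, it lay more than 3 median absolute deviations below that region's median. In bulk tissue, fewer cells of a type and less RNA per cell cannot be told apart, and this holds for every difference below.

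All 8 genes were far higher in the cerebellum than in the cortex or the hippocampus. The granule cell lineage factors came first: Zic1 was at 176 to 307 CPM in the 29 cerebellum libraries (median 225), at 1.92 to 5.51 in the cortex (median 2.98) and at 1.23 to 16.3 in the hippocampus of the first experiment (median 3.33). No cortex or hippocampus library reached the lowest cerebellum library. Ratios between regions were taken over all reads of a region in the first experiment. Zic1 was 73.9-fold higher in the cerebellum than in the cortex and 53.8-fold higher than in the hippocampus. Zic2 was at 40.7 to 75.4 CPM in the cerebellum, with ratios of 25.8 against cortex and 20.0 against hippocampus. Zic4 was at 41.3 to 71.9 CPM, with ratios of 21.2 and 15.3. Pax6 was at 71.6 to 99.1 CPM in the cerebellum. It had the smallest ratios of the 8 members in the first experiment, 13.9 against cortex and 11.8 against hippocampus. Pooled levels in the hippocampus of the second experiment were 12.0 CPM for Zic1, 4.73 for Zic2, 6.19 for Zic4 and 7.10 for Pax6. In the hippocampus of the first they were 4.09, 2.80, 3.19 and 7.01, so ratios to the second would be smaller for the Zic genes. These 4 genes were thus detected in all 96 libraries, at a low level outside the cerebellum.

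The Purkinje lineage and midbrain-hindbrain factors were close to absent outside the cerebellum. Lhx1 was at 50.3 to 80.1 CPM in the cerebellum. The 29 cortex libraries, with 302969226 counts in all, held 5 counts of Lhx1, a ratio of 4055 (95% interval 1737 to 12492, exact). Against the hippocampus of the first experiment, with 28 counts, the Lhx1 ratio was 703 (486 to 1059). Pooled Lhx1 was 0.0952 CPM there and 0.725 in the hippocampus of the second experiment, which these ratios leave out. Lhx5 was at 12.1 to 26.2 CPM in the cerebellum, with ratios of 304 (184 to 543) and 211 (138 to 341). En2 was at 21.5 to 37.9 CPM, with ratios of 194 (143 to 269) and 165 (124 to 223). These intervals cover counting error only, since the reads carry no molecular identifiers. En1, the least abundant, had 0 to 6.89 CPM in the cerebellum, 0 counts in the cortex and 3 counts in 1 of the 29 hippocampus libraries of the first experiment. Set against a floor of 3 counts over the region, En1 was at least 461-fold higher in the cerebellum than in the cortex, and its ratio to the hippocampus was 447 (153 to 2174).

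**Figure D1:**
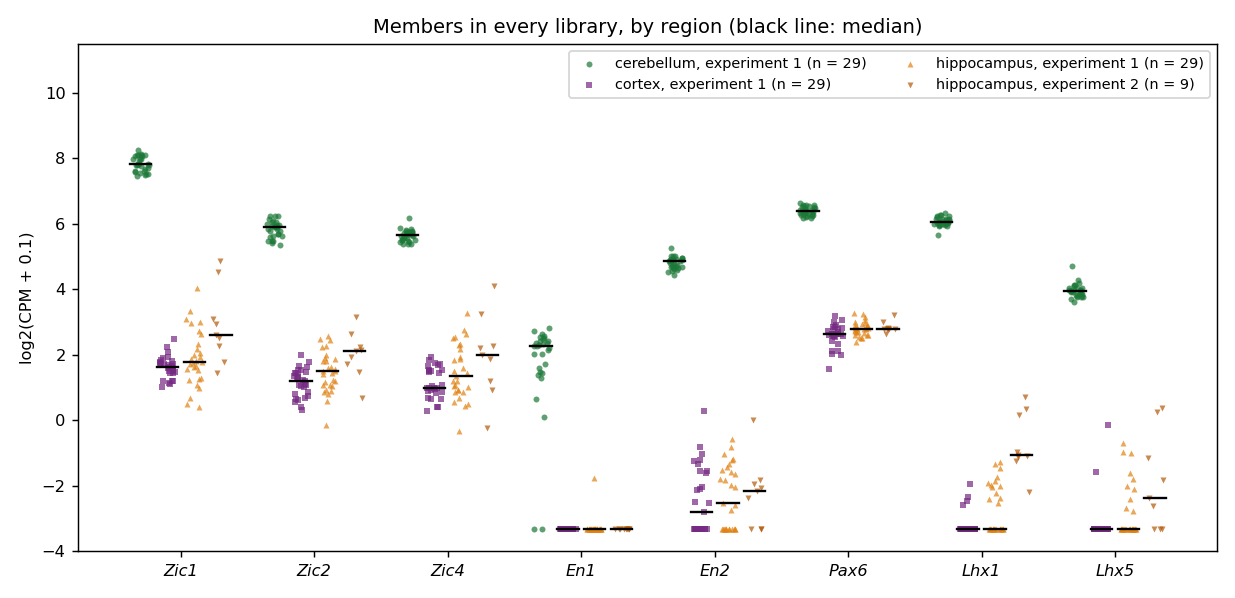
Level of each member in every library, as log2(CPM + 0.1), by region and experiment, with a black line at the median. All cerebellum points lie above all points of the other regions for 7 of the 8 genes, and for En1 the 2 cerebellum libraries at 0 lie with the other regions.

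In the joint model of the 87 libraries of the first experiment, all 8 members passed the threshold (adjusted p under 0.05, edgeR's quasi-likelihood test with Benjamini-Hochberg adjustment over 19490 genes) as higher in the cerebellum against both other regions. That count is weak on its own, because 83.3% of all genes passed against the cortex and 84.1% against the hippocampus in either direction. In the direction of higher in the cerebellum, 43% and 43.2% passed. En1, En2, Lhx1 and Lhx5 entered the model only through their cerebellar counts, so that they had to differ. Of the other 4 members, Zic1 had the largest log2 difference from the cortex, 6.04 ± 0.10 (SE), and 81 of the 19490 genes had a larger one. Pax6, with the smallest log2 difference of the members at 3.65 ± 0.06, had 317 genes above it.

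Per length of exon sequence, the order of the levels in the cerebellum was Zic1 (40.6 ± 6.45 CPM per kb, mean ± SD, n = 29), Zic2 (20.1 ± 3.49), Lhx1 (16.6 ± 1.53), En2 (7.93 ± 1.00), Pax6 (7.22 ± 0.676), Lhx5 (5.82 ± 0.975), Zic4 (4.87 ± 0.622) and En1 (1.54 ± 0.707). Zic1 stood clear of the others, with its lowest library at 30.9 CPM per kb and the highest of Zic2 at 26.2. The ranges of Zic2 and Lhx1 overlapped, Lhx1 stayed above En2 in all libraries, and from En2 down to Zic4 each range overlapped the next. En1 was below all of these, with a highest library of 2.62 CPM per kb against a lowest of 4.00 for Zic4. The lengths were GENCODE exon unions, and Zic4 and Pax6 have the longest, 10335 and 11694 bases.

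The hippocampus and the cortex differed little. Of the 8 members, 3 were higher in the hippocampus (29.9% of all genes were, and 60.3% differed in either direction): Zic2 by 0.34 ± 0.12 on the log2 scale (adjusted p = 0.0126), Zic4 by 0.35 ± 0.16 (adjusted p = 0.0436) and Pax6 by 0.20 ± 0.07 (adjusted p = 0.00702), all by edgeR's quasi-likelihood test. Zic1 had a log2 difference of 0.25 ± 0.14 and did not pass (adjusted p = 0.112, edgeR). With the mouse as a block for the paired regions, the adjusted p of Zic4 was 0.0699 in edgeR, and Zic2 and Pax6 passed. Zic4 also missed the threshold in limma-voom (adjusted p = 0.116), and so did Zic2 (adjusted p = 0.182). Lhx1, with 28 counts in the hippocampus and 5 in the cortex, was called as higher in the hippocampus by DESeq2 (log2 difference 1.40, adjusted p = 0.0069) and limma-voom (0.88, adjusted p = 0.00654), whereas edgeR gave an adjusted p of 1.00 and no usable standard error.

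Other genes of the same developmental programs were tested in the same model. In it, 83.3% of all genes differed between cerebellum and cortex, and 43% were higher in the cerebellum. The lists were chosen with earlier results of these data known, so their direction and size are descriptive. A gene that entered the model only through its cerebellar counts had to be higher there. Of the rhombic lip and progenitor regulators, 23 of 29 could be tested against the cortex, and 18 were higher and 4 lower in the cerebellum, with a median log2 difference of 3.98 against 0.02 for all genes. Neurod1, a granule cell differentiation factor, was higher by 4.88 ± 0.07, and Lhx2, a cortical selector gene, was lower, at −6.68 ± 0.15. Atoh1, the proneural gene of the embryonic rhombic lip, had a mean of 0.0228 CPM in the cerebellum and was at 0 in 26 of 29 libraries. Of the 11 Purkinje cell regulators, 9 were higher and 2 lower. Skor1, a corepressor of Purkinje cells, was higher by 7.37 ± 0.20, while Foxp1 was lower, at −2.11 ± 0.05. Of the isthmic organiser and hedgehog genes, 14 of 16 were tested, and 9 were higher and 3 lower. The hedgehog receptor Ptch1 was higher by 1.75 ± 0.04, and Gli3, a transcription factor of the pathway, was lower, at −0.56 ± 0.06. The partner proteins went the other way: of the 18 partners and corepressors, which are LIM cofactors, LIM-only, Pbx and Tle genes, 4 were higher and 13 lower, with a median of −0.44. Lmo4, which competes for LIM cofactors, was lower, at −2.90 ± 0.04, and the corepressor gene Tle2 was higher by 1.49 ± 0.05. Against the hippocampus the counts higher and lower were 17 and 5, 9 and 2, 9 and 3, and 4 and 14 for the same 4 lists. Zic5, the neighbour of Zic2 and no member here, had a mean of 86.5 CPM in the cerebellum, and the long noncoding RNA Lhx1os beside Lhx1 had 37.7.

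Within the regions, no member passed the threshold in any comparison of age or treatment. There were 22 such comparisons, 19 within a region and 3 of the age difference between regions, with 124 member tests, of which 15 had an unadjusted p under 0.05. Of all genes, 1.68% to 15.2% had such a p in these comparisons, and 6 of the 15 come from the comparison with the highest share. None was called by edgeR or DESeq2, and 1 was called by limma-voom.

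In naive mice, the cerebellar levels at 18 months overlapped those at 2 months for all 8 members. Of all genes, 2.39% passed between these ages, and of the members 0 passed and 0 had an unadjusted p under 0.05. Zic1 was at 273, 273, 276 and 202 CPM at 2 months and at 227, 270 and 253 at 18 months. The log2 differences ran from −0.11 ± 0.15 for Lhx5 to 0.23 ± 0.37 for En1, with a median of −0.02. Genes of cerebellar cell types did pass in this comparison: Gabra6, a receptor subunit of granule cells, fell by 0.31 on the log2 scale (adjusted p = 0.00487, edgeR), and Fabp7, a Bergmann glia gene, fell by 0.73 (adjusted p = 0.0214, edgeR). The rhombic lip, Purkinje, isthmic and partner lists had 0 genes called by edgeR.

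**Figure D2:**
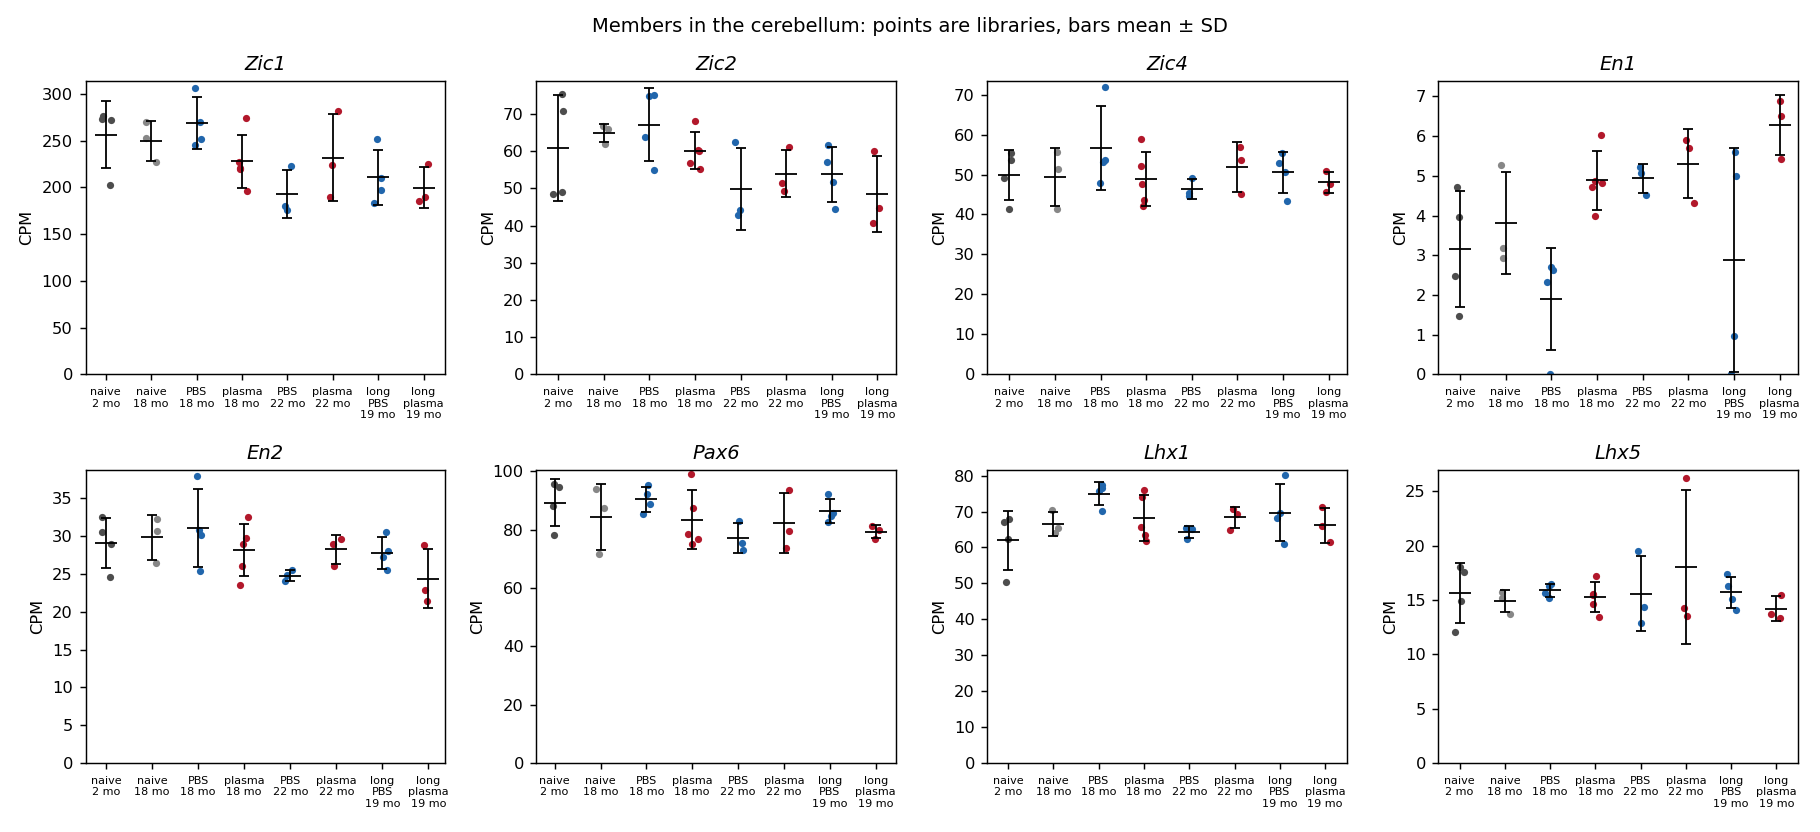
CPM of each member in the cerebellum by group, with a point for each library, a long bar at the mean and whiskers of 1 SD, on axes that start at 0. Zic1 lies lower in the PBS group of 22 months than in that of 18 months, and En1 has its lowest mean in the PBS group of 18 months.

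The comparison with the most movement among the members was that of the PBS mice at 22 and 18 months. Zic1 was at 307, 252, 270 and 245 CPM at 18 months (269 ± 27.7, mean ± SD) and at 223, 176 and 181 at 22 months (193 ± 25.8). The groups did not overlap. The log2 difference was −0.47 ± 0.12 (SE), with an adjusted p of 0.083 in edgeR and 0.0553 in DESeq2, and of 0.0248 in limma-voom.

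Pax6 was at 85.5, 88.6, 95.3 and 92.3 CPM at 18 months and at 82.8, 72.8 and 75.3 at 22 months, again with no overlap. Its log2 difference was −0.26 ± 0.09 (adjusted p = 0.163, edgeR). Lhx1 was at 75.8, 76.5, 77.5 and 70.3 CPM against 65.5, 62.2 and 65.2, with no overlap and a log2 difference of −0.23 ± 0.09 (adjusted p = 0.181, edgeR). Zic2 was at 74.8, 63.8, 54.8 and 75.2 CPM against 62.6, 44.2 and 42.7, which overlap, with a log2 difference of −0.41 ± 0.15 (adjusted p = 0.183, edgeR). With 1 library left out it was −0.62 (without replicate 15 of 22 months) to −0.29 (without replicate 18). En2 stood at −0.28 ± 0.12 (adjusted p = 0.259, edgeR), Zic4 at −0.21 ± 0.12 and Lhx5 at −0.08 ± 0.14.

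En1 went the other way. It was at 0, 2.32, 2.70 and 2.62 CPM at 18 months and at 4.51, 5.22 and 5.07 at 22 months, so that the groups did not overlap, with a log2 difference of 1.02 ± 0.36 (adjusted p = 0.155, edgeR). These are few reads: 0, 16, 15 and 27 counts against 44, 69 and 19. The library at 0, replicate 2, held 1029695 counts in all, in which the pooled cerebellar level of En1 would give 4.70 counts.

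In all, 7 of the 8 members were lower at 22 months, with a median log2 difference of −0.25 against −0.01 over all genes. Of the members, 6 had an unadjusted p under 0.05 and 4 did not overlap. Of all 17185 genes tested, 15.2% had such a p, 15.1% did not overlap, and 0.157% passed the adjusted threshold. The count of members called was 0 with edgeR and with DESeq2, 1 with limma-voom and 1 with no filter on low counts (Zic1 in both), and 2 where only these 7 libraries were fitted (Zic1 and En1).

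Markers of other tissue moved with this comparison. The midbrain and brainstem genes, a list of 15 summed here without the catecholamine enzyme gene Th, came to 6.11 to 9.15 CPM in the PBS mice of 18 months and to 23.4 to 51.4 at 22 months. Dbh, which marks noradrenergic neurons such as those of the brainstem, was at 0 to 0.581 CPM against 7.41 to 8.54. Slc6a2, the noradrenaline transporter gene, was at 0 to 0.678 against 5.23 to 8.54. In 6 of the 15 genes all libraries of 22 months were above those of 18 months, and Foxa1 and Foxa2 were at 0 in all 7 libraries. The sum of the granule cell genes was 3891 to 4147 CPM at 18 months and 3522 to 3686 at 22 months, and that of the astrocyte genes 1614 to 1704 and 1853 to 1919. Among single marker genes, Gfap, the astrocyte filament gene, rose by 0.54 on the log2 scale (adjusted p = 0.0294, edgeR), and Prox1, from the list of hippocampal neuron genes, fell by 0.41 (adjusted p = 0.0474, edgeR). The striatal, septal and thalamic genes summed to 98.2 to 107 CPM at 18 months and to 147 to 160 at 22 months, also with no overlap. The part of these markers in the member differences was not tested.

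Plasma left the cerebellar members where they were at the adjusted threshold, which 0% of all genes passed at any age. At 18 months, 1 member of 8 had an unadjusted p under 0.05: En1 was at 3.98, 4.81, 6.04, 4.88 and 4.72 CPM with plasma, above all 4 PBS libraries (0, 2.32, 2.70 and 2.62). Its log2 difference was 1.00 ± 0.34 (adjusted p = 1.00, edgeR). The other 7 members had log2 differences of −0.21 to −0.05, and Zic1 was at 275, 220, 221, 228 and 196 CPM with plasma. The midbrain and brainstem sum without Th was 7.51 to 37.2 CPM in these plasma mice, and 4 of the 5 libraries were above all PBS libraries of that age. The PBS libraries were at 6.11 to 9.15 CPM, and the naive libraries of 18 months were at 11.2 to 15.9. The part of this sum in the En1 difference was not tested.

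The PBS mice of 18 months are the reference of both En1 differences, which are therefore not independent. Against naive mice of 18 months (5.28, 2.94 and 3.19 CPM), En1 was lower in the same PBS libraries by a log2 difference of −0.66 ± 0.38, with no overlap (adjusted p = 1.00, edgeR; 0% of all genes passed). At 22 months, En1 was at 5.70, 4.31 and 5.90 CPM with plasma and at 4.51, 5.22 and 5.07 with PBS, a log2 difference of 0.09 ± 0.33. The midbrain and brainstem sum without Th was 5.70, 8.32 and 41.0 CPM in these plasma libraries, in the same order, and 23.4 to 51.4 with PBS. Its part in En1 was not tested there either. All 8 members had a positive sign in this plasma comparison, from 0.01 to 0.21, none with an unadjusted p under 0.05. Plasma differences at 22 and 18 months were compared directly after the values were seen, and 0 members and 0% of all genes passed in each of the 3 regions.

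After 24 injections, En1 was at 6.52, 6.89 and 5.43 CPM with plasma and at 0.957, 5.60, 5.01 and 0 with PBS. The groups overlap, and the long PBS group is split, with 2 libraries low, 1 within the range of the plasma group and 1 just below it. The log2 difference was 0.68 ± 0.32 (adjusted p = 0.742, edgeR; 0% of all genes passed). The long PBS library at 0, replicate 29, is the shallowest of the cerebellum at 851288 counts, in which 3.88 counts would be expected at the pooled level. Another shallow library, plasma at 22 months replicate 16 with 877031 counts, held 5. Without replicate 24 of the long PBS group, which held 4 counts, the En1 difference was 0.38.

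**Figure D3:**
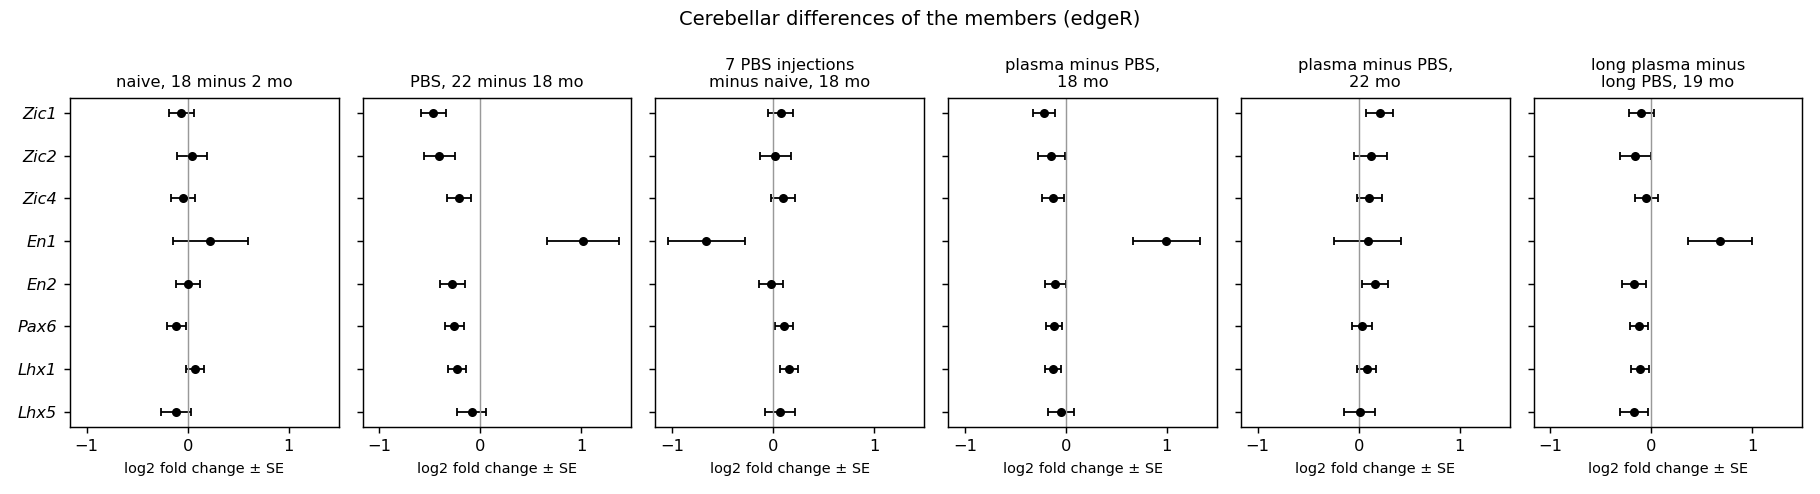
Log2 difference of each member in the 6 cerebellar comparisons, as points with whiskers of 1 SE from edgeR. En1 has the widest whiskers, and in the PBS comparison of 22 and 18 months it lies at 1.02 while the other 7 members lie between −0.47 and −0.08.

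Across the 29 cerebellum libraries, members moved with each other. Relations were computed on log2 CPM with TMM normalization and a prior count of 2, and for lists on the log2 of the summed CPM. The list sums had the same TMM normalization, except the midbrain and brainstem sum without Th, which was scaled to library totals alone. In a family of 7 pairs, 6 passed after adjustment (permutation tests with 100000 resamples, two-sided, Benjamini-Hochberg). Zic1 and Pax6, both of the granule cell lineage, had r = 0.752 and rho = 0.739 (adjusted p = 7.0e-05 for each, where the unadjusted 1.0e-05 is the smallest these permutations can give). The neighbours Zic1 and Zic4 had r = 0.690 and rho = 0.687 (adjusted permutation p = 7.0e-05 and 1.575e-04), and r = 0.621 without the 2 libraries farthest from the median. They share bases, so part of their reads may be common. Zic1 and Zic2, on different chromosomes, had r = 0.720 and rho = 0.688 (adjusted permutation p = 7.0e-05 and 1.575e-04). Zic2 and Zic4 had r = 0.534 and rho = 0.483 (adjusted permutation p = 0.00308 and 0.0109). Zic1 and Lhx1, which mark different lineages, had r = 0.592 and rho = 0.675 (adjusted permutation p = 0.00112 and 1.575e-04).

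The paralogs differed. En1 and En2 had r = −0.533 and rho = −0.479 (adjusted permutation p = 0.00308 and 0.0109), and r = −0.393 without the 2 farthest libraries (adjusted permutation p = 0.0491). Lhx1 and Lhx5 had r = 0.147 and rho = 0.159 and did not pass (adjusted permutation p = 0.439 and 0.411). From deviations within groups, which take out age and treatment, r was 0.687 for Zic1 and Pax6, 0.698 for Zic1 and Zic4, 0.537 for Zic1 and Zic2, 0.754 for Zic1 and Lhx1, and −0.506 for En1 and En2. Without the 2 farthest libraries, r was 0.760 for Zic1 and Pax6, 0.657 for Zic1 and Zic2, 0.493 for Zic2 and Zic4, 0.527 for Zic1 and Lhx1, and 0.158 for Lhx1 and Lhx5.

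The same libraries differed in cell markers, and Zic1 and Pax6 moved with them. In a second family of 13 relations, chosen after the data were seen, Zic1 had r = 0.800 and rho = 0.811 with the summed granule cell genes and Pax6 had r = 0.794 and rho = 0.811 (adjusted permutation p = 2.167e-05 for r and 1.857e-05 for rho in both). Zic1 had r = −0.804 and rho = −0.837 with the midbrain and brainstem sum without Th (the same adjusted permutation p), r = −0.781 and rho = −0.777 with Th (adjusted permutation p = 3.714e-05 and 1.857e-05), and r = −0.695 and rho = −0.703 with the astrocyte genes (adjusted permutation p = 4.875e-05 for each). Without the 2 farthest libraries these were 0.793, 0.773, −0.777, −0.769 and −0.690 in the same order. Lhx1 had r = 0.280 and rho = 0.331 with the Purkinje cell genes and did not pass (adjusted permutation p = 0.142 and 0.0790; r = 0.335 without 2), while within groups it had r = 0.423 (adjusted permutation p = 0.0279). En1 had r = 0.358 and rho = 0.515 with the midbrain and brainstem genes (adjusted permutation p = 0.0626 and 0.00547), r = 0.141 within groups and r = 0.585 without 2. The sums with and without Th thus differ in scaling as well as in Th. All these values are relative within a library, so a larger part of 1 tissue can lower the values of the others.

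**Figure D4:**
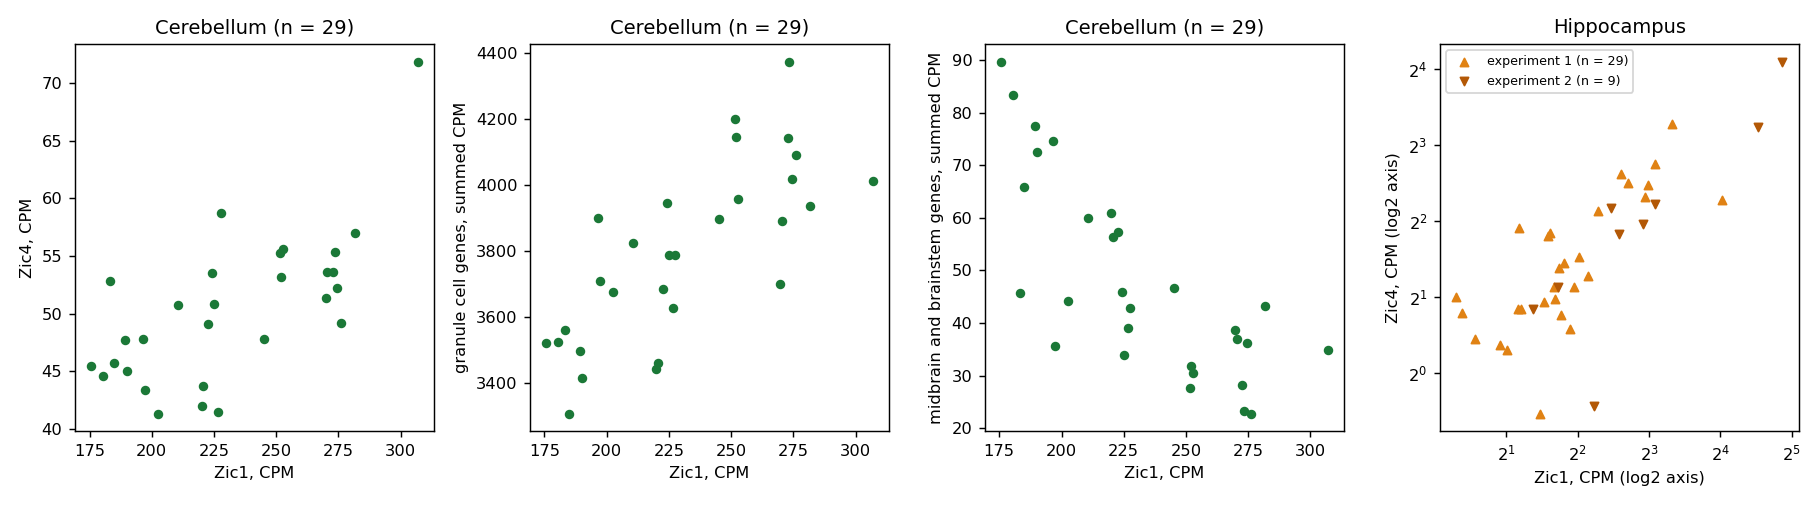
Scatter of Zic1 in CPM against Zic4, against the summed granule cell genes and against the summed midbrain and brainstem genes in the 29 cerebellum libraries, and of Zic1 against Zic4 in the hippocampus on log2 axes, with 1 point per library. On the log2 scale with TMM normalization, which the plotted CPM do not have, the cerebellum panels have r = 0.690, 0.800 and −0.781. The hippocampus panel shows both experiments.

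The genes most like each member across the 29 cerebellum libraries, by r of deviations from group means over 13623 genes, were as follows. For Zic1 they were Stmn2 (0.92), Ntm (0.92) and Luc7l3 (0.92), and for Zic2 Rsrp1 (0.82), Tesc (0.80) and Ppp3ca (0.79). For Zic4 they were Rell1 (0.82), Nfib (0.80) and Pan3 (0.80). For Pax6, the list was led by Gabrd (0.81), the receptor subunit of granule cells, before Bcl2l15 (0.78) and Epn2 (0.78). For Lhx1 they were Mtch2 (0.82), Sema4g (0.82) and Cerkl (0.80), for Lhx5 Zfp703 (0.77), Gas1 (0.76) and Ppil6 (0.74), and for En2 Acyp1 (0.82), Mphosph10 (0.77) and Ccdc59 (0.77). The genes most like En1, Kif4 (0.91), Myadml2os (0.90) and Calr4 (0.90), had means of 1.68, 1.29 and 1.06 CPM, and the part of low counts and depth in this likeness was not tested.

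In the cortex only the Zic genes and Pax6 passed the filter on low counts, and none passed the threshold. Naive mice of 18 months had Zic1 at 3.30, 3.67 and 4.59 CPM, above the 3.24, 2.06, 2.77 and 2.09 of 2 months, with a log2 difference of 0.56 ± 0.26 (adjusted p = 0.789, edgeR; 0.112% of all genes passed). These levels rest on 6 to 62 counts per library. The age difference did not differ between cortex and cerebellum at the threshold for any member (0.041% of all genes passed). In PBS mice, Zic2 was at 2.78, 2.46, 3.84 and 1.47 CPM at 18 months and at 1.66, 1.21 and 2.02 at 22 months, a log2 difference of −0.88 ± 0.27 (adjusted p = 0.233, edgeR; 0.00533% of all genes passed). The groups overlap by replicate 11 of 18 months, which held 3 counts. The 1 list gene called there was Etv1, higher by 0.65 ± 0.10 at 22 months (adjusted p = 0.0124, edgeR).

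With plasma at 18 months, cortical Zic2 was at 1.43, 2.20, 1.94, 1.38 and 1.71 CPM, a log2 difference of −0.80 ± 0.24 from the same PBS mice (adjusted p = 1.00, edgeR), with overlap. At 22 months the sign was the opposite: Zic2 was at 3.05, 2.40 and 2.96 CPM with plasma and at 1.66, 1.21 and 2.02 with PBS, with no overlap and a log2 difference of 0.81 ± 0.28 (adjusted p = 0.846, edgeR). Each plasma comparison shares its PBS libraries with the PBS comparison of the ages. The difference between the plasma differences of both ages, tested after it was seen, was 1.61 ± 0.37 and did not pass (adjusted p = 0.603, edgeR). With the second number of the sample titles as a term, the difference at 18 months was 0.07. It then rests on plasma replicates 10 and 13 against PBS replicate 11 alone, the libraries that share a number. After 24 injections the log2 difference of cortical Zic2 was −0.04 ± 0.28. The remaining cortical comparison, PBS against naive mice of 18 months, had log2 differences of −0.17 to 0.54. In these 4 cortical comparisons, 0% of all genes passed.

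The hippocampus had the same 4 genes above the filter, and the Zic genes varied more between its libraries than in the cortex. With naive mice, Zic2 was at 2.94, 2.14, 0.808 and 2.20 CPM at 2 months and at 3.52, 5.37 and 3.00 at 18 months, with no overlap and a log2 difference of 0.93 ± 0.45 (adjusted p = 0.779, edgeR; 0.0719% of all genes passed). Replicates 14 and 20 of 2 months, at 2.14 and 2.20 CPM, are among the libraries with low hippocampal markers, and replicate 20 held 1816018 counts. Fits without the libraries of low markers, and without those under 2500000 counts, were among 14 alternatives for the naive age comparison. Over these the log2 difference of Zic2 was 0.62 to 1.20, with a lowest adjusted p of 0.47 (edgeR). The age difference of Zic2 was larger in the hippocampus than in the cerebellum by 0.82 ± 0.41 (adjusted p = 0.574, edgeR; 0.0513% of all genes passed), and between hippocampus and cortex 0 members and 0% of all genes passed. With plasma at 22 months, Zic1 was at 1.89, 1.31 and 1.23 CPM, below the PBS libraries at 2.01, 2.32 and 6.51. The log2 difference was −1.32 ± 0.57 (adjusted p = 1.00, edgeR), and −0.57 without PBS replicate 21, the library at 6.51. That library also had the highest sum of the meningeal and fibroblast genes, 291 CPM, against 44.7 to 98.4 in the other 5 libraries. At 18 months the plasma difference of Zic1 had the opposite sign, 0.73 ± 0.47, with 3.72, 16.3, 9.97, 4.89 and 1.48 CPM against 6.12, 3.23, 3.40 and 2.87. The 16.3 CPM rest on 27 counts. In the 3 other hippocampal comparisons of treatment or PBS age the members ran from −0.67 to 0.22, and outside the age comparison 0% of all genes passed.

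**Figure D5:**
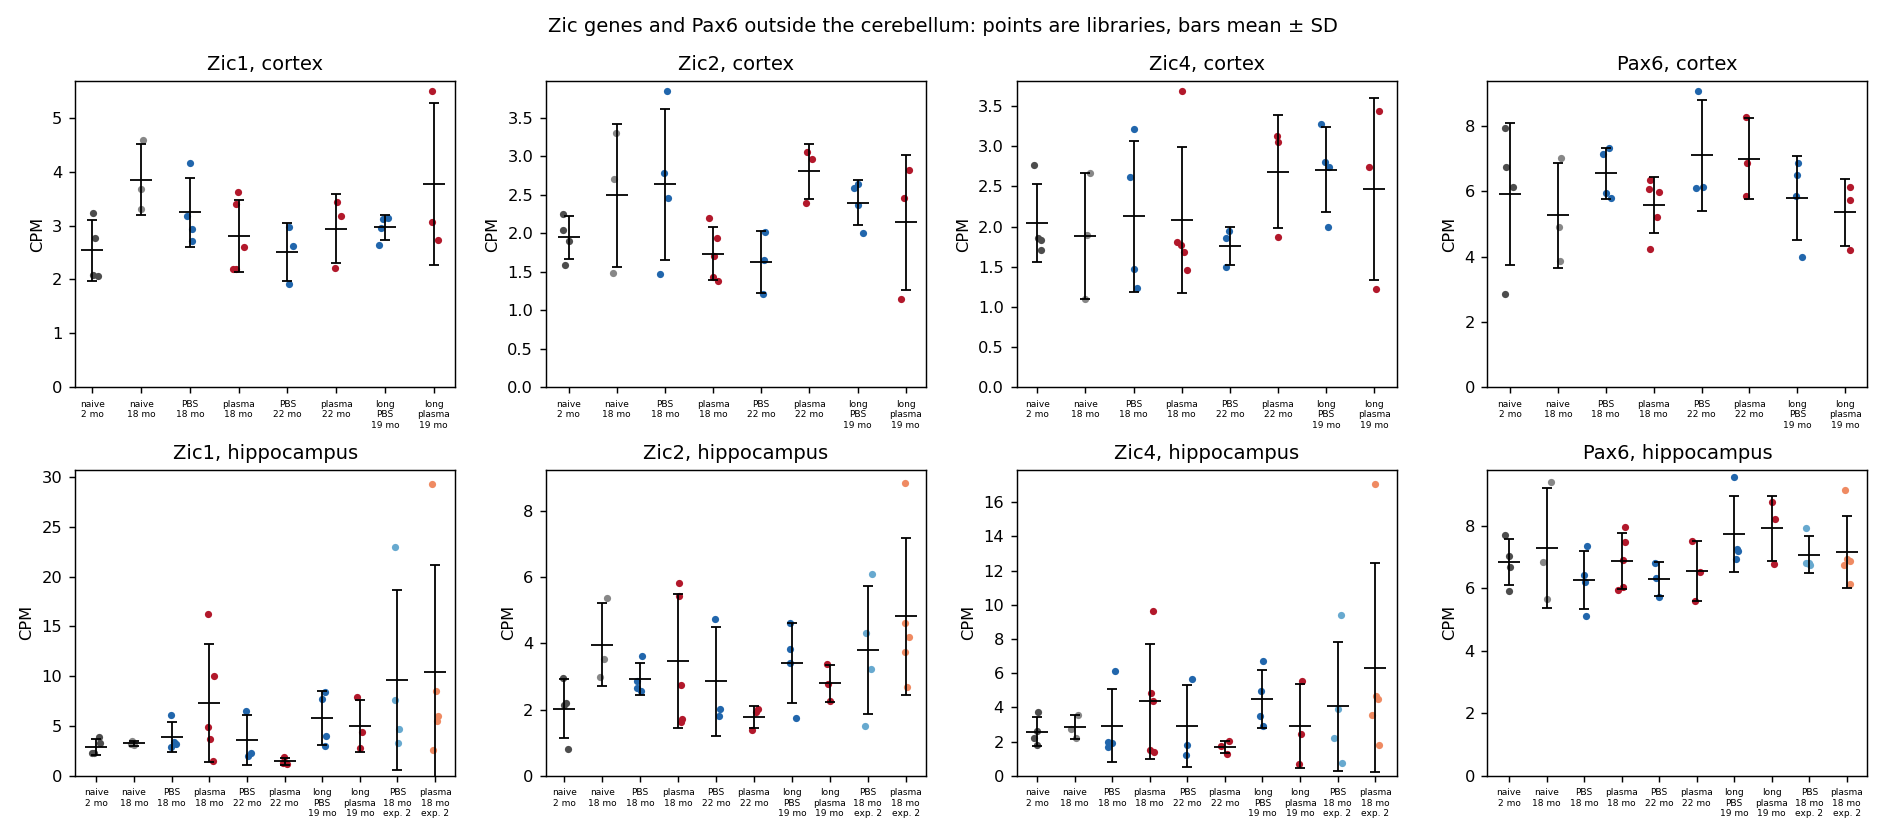
CPM of Zic1, Zic2, Zic4 and Pax6 in the cortex (top) and the hippocampus (bottom) by group, with a point for each library, a long bar at the mean and whiskers of 1 SD, on axes that start at 0, where a whisker below it is cut. Single libraries of Zic1 and Zic4 stand far above their groups in the hippocampus, up to 29.2 CPM for Zic1, while Pax6 stays between 5.10 and 9.56.

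In the second experiment, plasma and PBS mice of 18 months did not differ in any of the 4 genes at the threshold (0% of all genes passed). Zic1 was at 5.97, 5.55, 8.50, 2.60 and 29.2 CPM with plasma and at 7.58, 4.70, 23.0 and 3.30 with PBS, a log2 difference of 0.10 ± 0.61. In each group 1 library stood far above the rest. These libraries, plasma replicate 76 and PBS replicate 70, also had choroid plexus genes at 2721 and 3254 CPM and meningeal and fibroblast genes at 162 and 226 CPM, the highest of their groups. In the first experiment the pattern was not uniform: the library with the highest Zic1, plasma at 18 months replicate 4, had choroid plexus genes at 74.7 CPM, and replicate 7 of that group, with 9.97 CPM of Zic1, had 2788. Their part in the Zic levels was not tested.

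Over the 38 hippocampus libraries the Zic genes moved together, with r = 0.797 and rho = 0.792 for Zic1 and Zic4, r = 0.775 and rho = 0.739 for Zic1 and Zic2, and r = 0.668 and rho = 0.677 for Zic2 and Zic4 (adjusted permutation p = 2.167e-05 for r and 1.857e-05 for rho in each). Without the 2 farthest libraries r was 0.707, 0.699 and 0.616. Within the experiments, Zic1 and Zic4 had r = 0.760 in the first and 0.866 in the second. Zic1 had r = 0.477 and rho = 0.551 with the meningeal and fibroblast genes (adjusted permutation p = 0.0037 and 7.944e-04), 0.465 in the first experiment, 0.846 in the second and 0.446 without 2. With the striatal, septal and thalamic genes it had r = 0.466 and rho = 0.494 (adjusted permutation p = 0.00415 and 0.00251), 0.445 without 2. The genes most like hippocampal Zic1 over these libraries were Zic5 (0.82), Mycbpap (0.75) and Tbx15 (0.73), those most like Zic2 were Il13ra1 (0.78), Fbln5 (0.74) and Vstm4 (0.74), and those most like Zic4 were Sned1 (0.81), Car14 (0.81) and Sema3b (0.81). Pax6 was less like any other gene, with Ncam2 (0.63) first.

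Traces of Lhx1 and Lhx5 differed between the experiments. Lhx1 had at least 1 count in 9 of 9 hippocampus libraries of the second experiment (1 to 19 counts each, median 0.373 CPM) and in 13 of 29 of the first (median 0). Lhx5 had a count in 6 of 9 and in 10 of 29. Lhx1 and Lhx5 are known from Cajal-Retzius cells, early-born neurons of the hippocampal surface. Among other genes of these cells, Trp73 had a median of 2.20 CPM in the second experiment and 2.01 in the first. Ebf3 had a median of 1.08 CPM in the second, with a count in 9 of 9 libraries, and 0.234 in the first, with a count in 23 of 29. Reln, which these cells secrete and interneurons also express, had medians of 29.1 and 27.8 CPM. The rest of the list, in the same order, were Cacna2d2 at 12.8 and 12.0, Nhlh2 at 1.17 and 0.978, and Ndnf at 23.9 and 26.1. Ndnf was thus lower in the second experiment. The experiments hold no shared mouse, so that animals, dissection and library preparation cannot be told apart between them.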

How the data were processed

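Total RNA of dissected regions (RNeasy) was made into Smart-Seq2 and Nextera XT libraries, which do not mark strand, per the labels' protocols. The authors deposited raw read counts per gene. Trim Galore 0.3.7, STAR 2.5.3a, build GRCm38 and DESeq2 are named, per the submitters' processing notes; the counting tool and its annotation are not given in the sources used here. Of 35486 genes, 6251 were at 0 in every library.

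Counts were tested with edgeR 4.0.16 in R 4.3.3 (TMM normalization, quasi-likelihood test, Benjamini-Hochberg adjustment over all genes tested, threshold 0.05), after a filter on low counts (minimum 10, total 15). Each region, and the second experiment, had its own fit of all its groups, and regions were compared in 1 fit of 87 libraries. En1, En2, Lhx1 and Lhx5 were below the filter outside the cerebellum. DESeq2 1.42.0 and limma 3.58.1 were alternatives, with other scalings, filters and left-out libraries. In data simulated for the cerebellar age comparison, 96% of genes changed by a log2 fold of 1 and 100% of those changed by 2 were recovered (100 genes each of 17071 tested). In the same data 14 unchanged genes were called. The changed genes were drawn only from those with high counts. Smaller differences, as most of the members had, and genes of few counts were not simulated, so this does not give the power for them. Replicates are single mice, so that p-values measure the spread between these mice. Regions of 1 mouse carry the same animal number, and the median correlation of same-mouse deviations was 0.0627, 0.0544 and 0.0918 in the 3 region pairs. Relations across libraries used permutation tests with 100000 resamples.

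The members and all gene lists were chosen with earlier results of these data known. Named genes were the 8 members in every comparison, and from each list up to 2 genes per direction with the lowest adjusted p among those past the threshold with a mean of at least 5 CPM, from which examples were taken. Gabra6, Pcp2, Prox1, Ttr, Th and Trp73 were followed in all regions. Likeness named the 3 genes with the highest r, among members of at least 1 CPM, and was extended to the hippocampus after the data were seen. Neighbouring and single marker genes (Zic5, Lhx1os, Pax6os1, Atoh1, Dbh and Slc6a2) were also named after their values were seen. The value of 1 gene of the midbrain and brainstem list is not reported here.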

Additional observations from a re-analysis of the deposited data

Results flagged for a closer look

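In 11 of 72 groups of members and conditions with 4 or more libraries, the highest or lowest library stood apart by Dixon's criterion, which chance alone meets in about 1 in 20 groups. In the cerebellum, Zic1 was at 202 CPM in replicate 20 of the naive mice of 2 months (next value 273), and En1 was at 0 in replicate 2 of the PBS mice of 18 months (next 2.32). In the hippocampus, the same mouse, PBS at 18 months replicate 2, had 6.12 CPM of Zic1 (next 3.40) and 6.12 of Zic4 (next 1.97). In the second experiment, plasma replicate 76 had 29.2 CPM of Zic1 (next 8.50) and 17.1 of Zic4 (next 4.66). In the cortex, Zic4 was at 2.77 CPM in replicate 17 of the naive mice of 2 months (next 1.86). It was at 3.68 in replicate 10 of the plasma mice of 18 months (next 1.81), a library with a low score of cortical markers. Hippocampal Pax6 was at 9.56 CPM in long PBS replicate 24 (next 7.24), a library with a low score of hippocampal markers. In the second experiment Pax6 was at 7.94 CPM in PBS replicate 70 (next 6.82) and at 9.14 in plasma replicate 72 (next 6.94).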

How the results depend on the processing

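The higher level of all 8 members in the cerebellum than in both other regions passed the threshold under every alternative run, among them DESeq2, limma-voom, other size factors, no filter and each mouse left out. For En1, En2, Lhx1 and Lhx5, which passed the filter only through their cerebellar counts, this had to be so. In the main fit 83.3% of all genes passed against the cortex and 84.1% against the hippocampus. In the cerebellar comparison of PBS mice at 22 and 18 months, the members called were 0 in edgeR, 1 with limma-voom (Zic1, adjusted p = 0.0248), 1 with no filter (Zic1, adjusted p = 0.0135) and 2 with only the compared groups fitted (Zic1, adjusted p = 0.00319, and En1, adjusted p = 0.0319, edgeR). Over all genes the same settings called 27, 292, 312 and 483. Over all alternatives the adjusted p of Zic1 there was 0.00319 to 0.335, with log2 differences of −0.59 to −0.39. The adjusted p of En1 was 0.0319 to 0.416. The 1 reversal was cortical Zic2 with plasma at 18 months, 0.0724 with the second number of the sample titles as a term, a number whose meaning is not given in the sources used here. PBS mice of 22 and 18 months share no such number, nor do naive and PBS mice of 18 months, naive mice of 2 and 18 months, or long plasma and long PBS mice, so that it cannot be told apart from the group in those comparisons. In the fit with the reversal, plasma and PBS mice of 18 months share only the number held by plasma replicates 10 and 13 and PBS replicate 11. The difference there rests on these libraries, with Zic2 at 1.38 and 1.71 CPM against 1.47.

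Between hippocampus and cortex, Zic4 was lost in 5 alternatives (adjusted p = 0.116 with limma-voom, 0.0504 with no filter, 0.0704 without libraries under 2500000 counts, 0.0699 with the mouse as a replicate block and 0.067 with only the compared regions, edgeR otherwise) and in 15 of the 29 fits that left out 1 mouse, up to 0.216 without mouse 21. Zic2 was lost with limma-voom (adjusted p = 0.182), without libraries of low marker score (0.0513, edgeR) and without mouse 6 (0.118, edgeR). DESeq2 called 4 members, with Lhx1 as the added one, and limma-voom called 2, Pax6 and Lhx1. With a mouse left out, 2 or 3 members were called. With the mouse as a replicate block, for the pairing of regions, 8, 8 and 2 members were called in the 3 region comparisons, and the block changed no other call. Treatments within a region share no animal, so no paired analysis was possible there. Depth limits En1 in the cerebellum, where 3 libraries held under 2500000 counts, and Zic1, Zic2 and Zic4 outside it, where a level rests on few reads.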
